A study of Bos taurus with 6 samples.

Results

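The HOXB interval of bovine embryonic stem cells is the stretch of chromosome 19 from base 38400000 to 38800000 (UMD3.1), 400 kb long, in which 109 of the 88657 peak summits of 4 lists lay. It was chosen by position, after its H3K27me3 summits had already stood out among broad autosomal domains of the same lists, so every value below is a description of these libraries and carries no test. The summits comprised 46 of H3K27me3 and 4 of H3K4me3 in line A, and 51 and 8 in line B. H3K27me3 filled the lower part of the interval in a broken stretch of more than 200 kb, present in both lines. H3K4me3 summits were low in score throughout it and nearly absent from its widest domain.

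Lines A and B are independent embryonic stem cell lines derived from bovine blastocysts and were sampled at passage 12. Both were kept in the same growth medium, with human FGF2 and the WNT inhibitor IWR1, on mouse feeder cells that were taken out with magnetic beads before chromatin was made. The lines differed in no treatment, and each contributed 1 library per mark (n = 2 lines). A difference between the lines is therefore a difference between single libraries, and 2 input libraries were not analysed here.

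HOX genes encode homeodomain transcription factors that give cells their position along the head-to-tail axis. They sit in clusters in which the order along the chromosome follows the order of their use in the embryo, from head to tail. In pluripotent cells the clusters are largely silent and are a classic target of Polycomb repressive complex PRC2, which trimethylates histone H3 at lysine 27 (H3K27me3) over long stretches. Trimethylation at lysine 4 (H3K4me3) marks the promoters of active genes, and at many silent developmental genes it is found beside H3K27me3, a state known as bivalent.

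In the RefSeq annotation of another bovine assembly, ARS-UCD2.0, chromosome 19 carries 10 HOXB genes, among them the 9 listed for this locus. HOXB13, a tail and prostate gene, is followed by HOXB9, HOXB8, HOXB7, HOXB6, HOXB5, HOXB4, HOXB3, HOXB2 and HOXB1, in that order. HOXB1, HOXB2 and HOXB3 act in the hindbrain, HOXB5, HOXB6 and HOXB7 act further back, in the neck and trunk, HOXB4 and HOXB8 are known from blood progenitors, and HOXB9 helps to pattern the rib cage. Genes for 3 microRNAs, MIR196A-1, MIR2886 and MIR10A, lie among them. The next protein-coding genes in that table are TTLL6 beyond HOXB13 and LOC784122 beyond HOXB1. Coordinates of that assembly cannot be laid over UMD3.1, and the peak lists name no genes. Positions are therefore given below without assigning a summit to any HOXB gene, and whether the interval holds the whole cluster was not tested.

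The H3K27me3 summits of the interval had an empty flank on each side. How common empty stretches of such length are on the autosomes was not tested. The nearest H3K27me3 summit to the left lay at 38099967 for line A and 38099471 for line B, 306 kb before the first summit of the interval in each line. To the right the next was at 39081189 and 39081057, which left 384 kb and 383 kb without a summit. Between these empty flanks the first H3K27me3 summit stood at 38405871 for line A and 38405777 for line B, and the last at 38697233 and 38697620. The H3K27me3 summits thus spanned 291 kb for line A and 292 kb for line B.

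**Figure D1:**
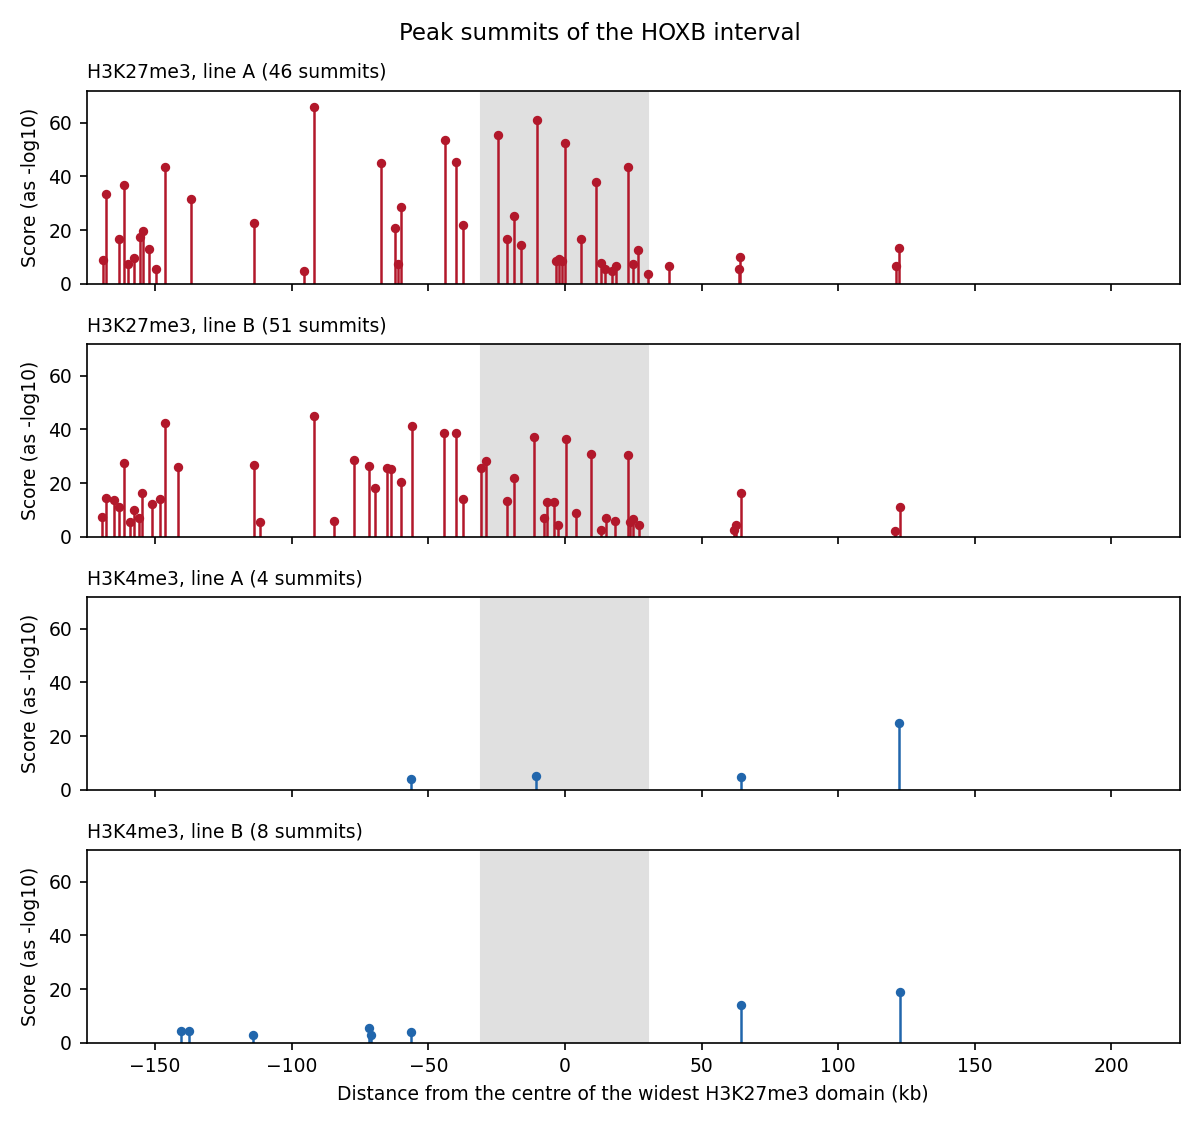
Position (x axis, kb from the centre of the widest H3K27me3 domain) and peak score (y axis, taken as −log10) of all 109 summits of the interval, 1 panel per library, 1 vertical line per summit. The grey band is the H3K27me3 domain of 61.1 kb. H3K27me3 reaches scores of 65.7 for line A and 44.8 for line B, while H3K4me3 stays at or under 24.9 and the part of the interval to the right of the last summits is empty.

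The map of summits shows an uneven stretch with breaks. Joining the H3K27me3 summits of both lines wherever neighbours lay at most 5 kb apart gave 12 segments. Of these, 3 groups held most summits. The left block, at 38405777 to 38428566 (22.8 kb), held 11 summits of line A and 12 of line B. A middle block of thinly spread segments, at 38433599 to 38518961 (85.4 kb), held 8 and 12. The right block, at 38530851 to 38613114 (82.3 kb), held 23 and 22. The 2 remaining sites were small and lay further right, at 38636970 to 38639309 with 2 and 3 summits, and at 38695906 to 38697620 with 2 in each line. The blocks were set after the gaps had been seen. Allowing gaps of 25 kb joined everything except the last site into 1 stretch of 234 kb, from 38405777 to 38639309, with 44 summits of line A and 49 of line B.

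The widest segment, the H3K27me3 domain proper, ran from 38544455 to 38605570 (61.1 kb) and held 19 summits in each line. In line A its first and last summits were at 38550400 and 38605570, in line B at 38544455 and 38601976. Its width was 56.3 ± 1.66 kb (SD, n = 2 lines). Both widths were taken inside the same chain of pooled lines, so the SD does not measure how domains called in each line alone would differ. Neighbouring summits lay a median of 2.50 kb apart for line A and 2.79 kb for line B. The widest gap inside it was 6.98 kb in line A, between 38564672 and 38571653, and 7.68 kb in line B, between 38546223 and 38553898. Both gaps exceed 5 kb, so the domain holds together only with the lines pooled. In either line alone the segment with the most summits was the left block, 22.7 kb wide in each.

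The deposited peak score was taken for the −log10 of a p-value or q-value, since no list holds a value under 2 and no source used here defines it. A score of that kind measures the evidence for a peak and rises with the depth of its library, so scores were ranked within each list. The H3K27me3 scores of the interval ran from 3.71 to 65.7 in line A, with a median of 15.6, and from 2.19 to 44.8 in line B, with a median of 14.0. The median over all autosomal H3K27me3 summits was 11.4 for line A and 13.2 for line B. Of the 46 summits of line A, 27 lay above the autosomal median, and of the 51 of line B, 28 did. None in either line reached the top autosomal decile, and the highest stood at percentiles 78.1 and 71.2. The locus was therefore broad in H3K27me3, and middling in the score of its single summits against all autosomal ones. That background includes the position-locked domains described below. Without them, the median score of the widest domain stood at percentile 67.0 for line A and 66.2 for line B. The summits of the whole interval were not ranked that way.

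The strongest summit was the same in both lines. It lay in the middle block, at 38483046 in line A with a score of 65.7 and at 38483249 in line B with 44.8, 203 bases apart. In line A it was followed by 38564672 (61.2), 38550400 (55.6), 38531294 (53.7) and 38575006 (52.3). The next highest of line B were 38428526 (42.4), 38518961 (41.3), 38535120 (38.7) and 38530851 (38.6). Of the 5 strongest sites of line A, 2 had one of the 5 strongest of line B within 1 kb. The high summit of the left block in line B, at 38428526, had a partner 40 bases away in line A, at 38428566, which scored 43.6 and ranked 8 of 46 there. High summits were thus spread over all 3 blocks in both lines. The small sites at the right end were weak, with no H3K27me3 score above 16.3 in either line.

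Inside the widest domain, strong and weak summits were mixed. In line A its scores ran from 3.71 to 61.2 with a median of 12.4, and in line B from 2.56 to 37.2 with a median of 12.8. The highest lay close together, at 38564672 for line A and 38563718 for line B. The summits nearest the right edge were weak, at 3.71 in line A (38605570) and 4.29 in line B (38601976). At the left edge scores were high in both lines, at 55.6 for line A (38550400) and 25.7 for line B (38544455).

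The lines placed H3K27me3 over the same stretch, with summits that often did not coincide. A summit of the other line lay within 1 kb of 33 of the 46 summits of line A (71.7%), against 66% of all autosomal H3K27me3 summits of that line. In line B it was 33 of 51 (64.7%), against 83.6%. Part of that autosomal background comes from 152 domains called position-locked, in which the summits of the lines lay a median of at most 30 bases apart. Outside those domains the shares were 57.2% for line A and 77.7% for line B. The share at HOXB was thus above the background in line A and below it in line B, and line B had the shorter autosomal list, 13083 summits against 17664. Within 5 kb, 45 of the 46 (97.8%) and 48 of the 51 (94.1%) had a summit of the other line, against 80.8% and 93.7% on autosomes.

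**Figure D2:**
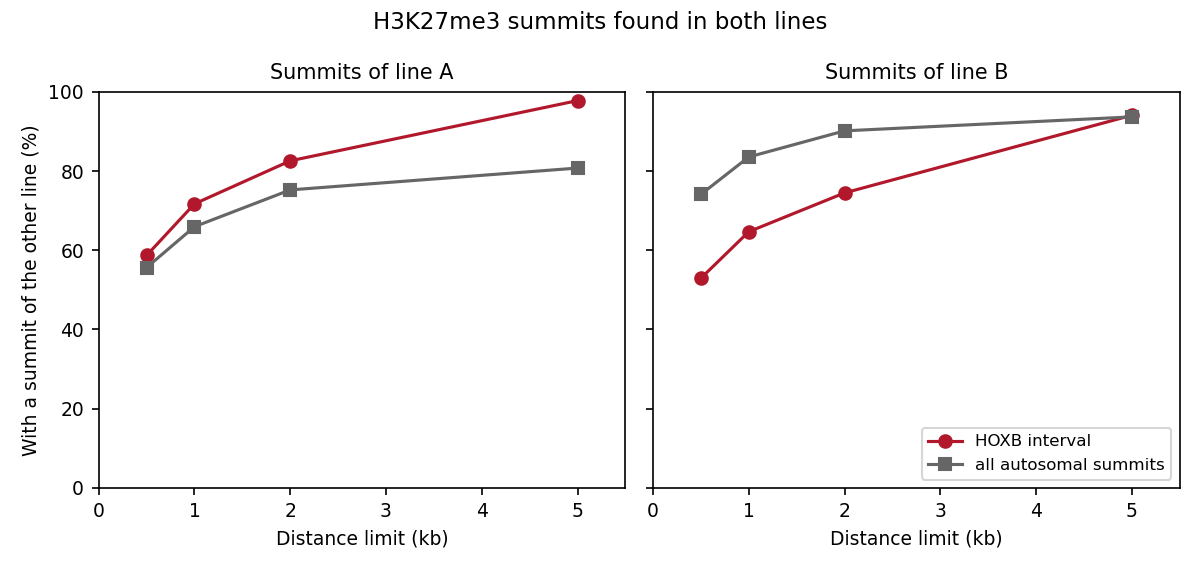
Percent of H3K27me3 summits (y axis) that have a partner in the other line at or under the distance on the x axis (kb), for line A (left) and line B (right), in the HOXB interval (circles) and over all autosomal summits (squares). The HOXB share lies above the autosomal one in line A at every distance shown, from 58.7% to 97.8%, and in line B rises from 52.9%, below the autosomal 74.1%, to 94.1%.

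Agreement was uneven along the locus. In the left block 10 of 11 summits of line A and 10 of 12 of line B had a partner within 1 kb, at a median distance of 94 and 97.5 bases. The right block had 16 of 23 and 16 of 22, at medians of 443 and 413 bases. In the middle block only 3 of 8 and 3 of 12 did, and the medians were 1312 and 2225 bases. The left block thus agreed more closely than the middle block in both lines. The middle block also held 12 summits in line B against 8 in line A, among them 4 of line B from 38490421 to 38505581 where line A had none.

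Summits without a partner in the other line included strong ones. The 18 H3K27me3 summits of line B with no summit of line A within 1 kb had a median score of 21.8, against 12.8 for the 33 that had one. Among all autosomal summits of line B the order was the opposite, 5.33 without a partner and 17.3 with one, and outside position-locked domains it was 5.33 and 9.93. In line A the medians over the interval were 14.4 for the 13 without and 16.8 for the 33 with a partner, against 5.45 and 22.6 on autosomes and 5.20 and 12.4 outside position-locked domains. Inside the widest domain the lone summits had the higher median in both lines, 15.6 for 6 against 9.36 for 13 in line A, and 19.3 for 6 against 6.94 for 13 in line B. Of the 13 and 18 lone summits, 12 and 15 had a summit of the other line within 5 kb. The highest lone summits were at 38550400 in line A (55.6), 3498 bases from its nearest neighbour in line B, and at 38518961 in line B (41.3), 3754 bases from the nearest of line A.

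Where summits did pair, their scores followed each other. The interval held 31 pairs of mutually nearest H3K27me3 summits within 1 kb, a median of 171 bases apart, against 45 bases for 10406 autosomal pairs. The autosomal pairs include those of position-locked domains, which were set by a median distance of at most 30 bases. No value for autosomal pairs outside those domains was computed. Across the 31 pairs Pearson's r of the log2 scores was 0.88 and Spearman's rho 0.89, against 0.92 and 0.90 over the autosomal pairs. These are correlations across sites of 1 library per line, and sites are not independent replicates. Line A had the higher score in 26 of the 31 pairs (83.9%), against 61% of autosomal pairs, those of position-locked domains included. The median log2 ratio of line A to line B was 0.37 at the locus and 0.16 on autosomes. Depth moves with these scores and is unknown, and its part in the ratio was not tested.

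**Figure D3:**
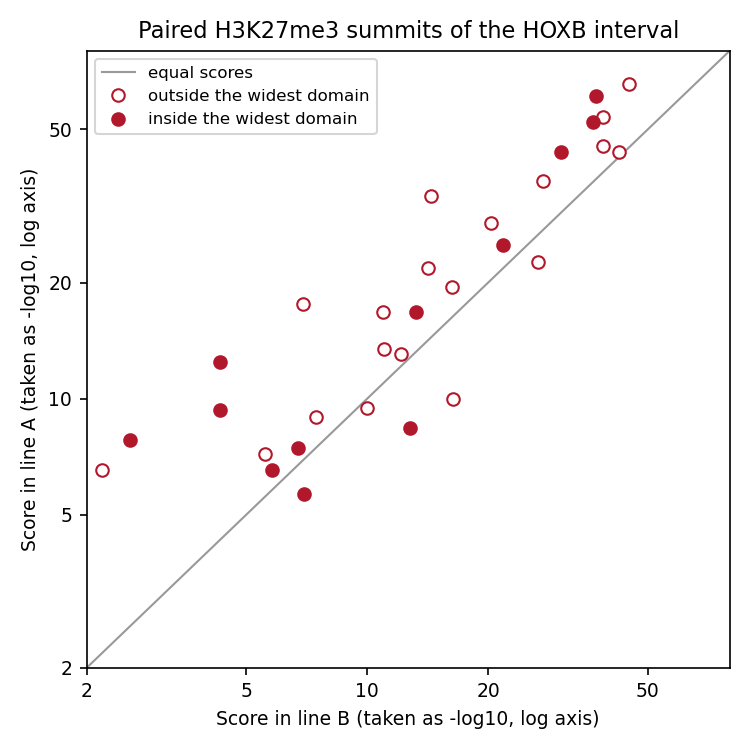
Peak score (taken as −log10, log axes) in line B (x axis) and line A (y axis) of the 31 paired H3K27me3 summits, filled inside the widest domain and open outside it, with a line at equal scores. Points follow the line over the whole range, and 26 of the 31 lie above it.

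H3K4me3, the mark of active and poised promoters, was nearly absent from the widest H3K27me3 domain. Line A had 1 H3K4me3 summit there, at 38564403 with a score of 4.98, 269 bases from the strongest H3K27me3 summit of the domain. Line B had none. The H3K4me3 summit of line B nearest to the domain, at 38518748, lay 25707 bases before its left edge and 45655 bases from that summit of line A. The left block had no H3K4me3 summit of either line within 1 kb. The right block as a whole had that 1 summit and no other.

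Most H3K4me3 summits of the locus lay in the middle block and at the small sites on the right. In the middle block line A had 1, at 38518660 with a score of 3.87, and line B had a summit 88 bases away, at 38518748 with 4.18. Line B had 5 more there: 38434467 (4.48), 38437408 (4.57), 38461043 (2.78), 38503352 (5.66) and 38504039 (2.95). None of these 5 had a summit of line A within 1 kb. The 2 sites on the right carried H3K4me3 in both lines. At the first, line A had 38639473 with a score of 4.74 and line B 38639501 with 14.1, 28 bases apart. At the second, line A had 38697270 with 24.9 and line B 38697636 with 18.9, 366 bases apart. This second site had the highest H3K4me3 score of the interval in each line. The median H3K27me3 scores at these 2 sites, 7.79 and 10.0 for line A and 4.55 and 6.59 for line B, were below those of the 3 blocks, which ran from 14.4 to 25.6 and from 13.0 to 25.9.

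All 12 H3K4me3 summits scored below the autosomal median of their list, which was 38.6 for line A and 59.2 for line B. Of the 12, 9 ranked below percentile 6, and the highest reached percentile 36.5 for line A and 23.1 for line B. The lines shared 3 of the 4 H3K4me3 summits of line A within 1 kb (75%, against 93.7% on autosomes) and 3 of the 8 of line B (37.5%, against 88.6%). The nearest H3K4me3 summit outside the interval on the left stood at 38354525 for line A (19.5) and 38354720 for line B (21.7), and on the right at 39021481 (39.4) and 39021519 (58.0).

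Nearly every H3K4me3 summit of the locus lay beside H3K27me3. In line A 3 of 4 had an H3K27me3 summit of the same line within 1 kb, against 24.2% of autosomal H3K4me3 summits, and in line B 7 of 8 did, against 19.8%. The closest were 1 base apart in line B, at 38503352 and 38503353, and 37 and 16 bases apart at the rightmost site in lines A and B. The interval was taken up after its H3K27me3 summits had stood out. Where such summits are dense, an H3K4me3 summit lies near one more often, wherever it falls. The autosomal shares were not matched for this density. How much of the excess over them it accounts for was not tested. In the other direction the overlap was small. Of the 46 H3K27me3 summits of line A, 4 (8.70%) had H3K4me3 within 1 kb, against 31.1% on autosomes and 37% outside the position-locked domains. In line B it was 6 of 51 (11.8%), against 34% and 45.2%. Both marks were read in separate libraries from many cells, so a shared position does not place them on 1 nucleosome or in 1 cell.

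The domain was next set beside other broad H3K27me3 domains of autosomes. These were built with the same gap of 5 kb and needed at least 5 summits in each line, which gave 398. In 215 of them, here called loose, the summits of the lines lay a median of over 100 bases apart, and the HOXB domain, at 479 bases, was 1 of these. By width it ranked 3 of 215, at 56.3 kb against a median of 15.8 kb. The wider ones were on chromosome 25 at 2589210 to 2675654 with 82.5 kb and on chromosome 4 at 69341100 to 69413727 with 68.7 kb. Next came a domain of 54.4 kb on chromosome 18, from base 64189812 to 64244295. It was followed by one of 44.3 kb on chromosome 7, from base 48549647 to 48596245, and one of 44.0 kb on chromosome 8, from base 62140799 to 62188499. Among all 398, position-locked ones included, it ranked 27.

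Its summits were thinly spread for its width. It held 3.11 H3K27me3 summits per 10 kb in each line, and 204 of the 215 loose domains had more in the mean of the lines, with a median of 4.73. The median scores of 12.4 and 12.8 compared with medians of 9.35 and 8.45 over the loose domains, of which 58 for line A and 44 for line B stood higher. Its highest summit in line A, 61.2, was exceeded in 2 of the 215, and that of line B, 37.2, in 19. The distance between the lines, 479 bases, compared with a median of 390. HOXB was thus one of the widest and sparsest of these domains, with scores in their upper part.

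Among the loose domains, its lack of H3K4me3 was shared by few of like width. An H3K4me3 summit in the domain or within 1 kb of it was found in 81.9% of the 215 loose domains for line A and 86% for line B, and in both lines in 80.5%. The median was 2 for line A and 3 for line B, against 1 and 0 at HOXB. At most 1 summit over both lines was found in 35 of the 215, and among these 35 the HOXB domain was the widest. Of 17 loose domains at least 30 kb wide, 15 had H3K4me3 of both lines. The exceptions were the HOXB domain, with its 1 summit of line A, and the domain on chromosome 8, with none in either line. The domain on chromosome 25 held 12 and 16 H3K4me3 summits, that on chromosome 4 held 2 and 5, that on chromosome 18 held 6 and 7, and that on chromosome 7 held 2 and 1. With position-locked domains included, the lack was more common. Fewer H3K4me3 summits than at HOXB were found in 24.9% of all 397 other domains, against 12.6% of the 214 other loose ones. Of position-locked domains of like width, that on chromosome 10 from base 59479080 (56.6 kb) held none. That on chromosome 1 from base 144074101 (58.1 kb) held 4 and 2.

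**Figure D4:**
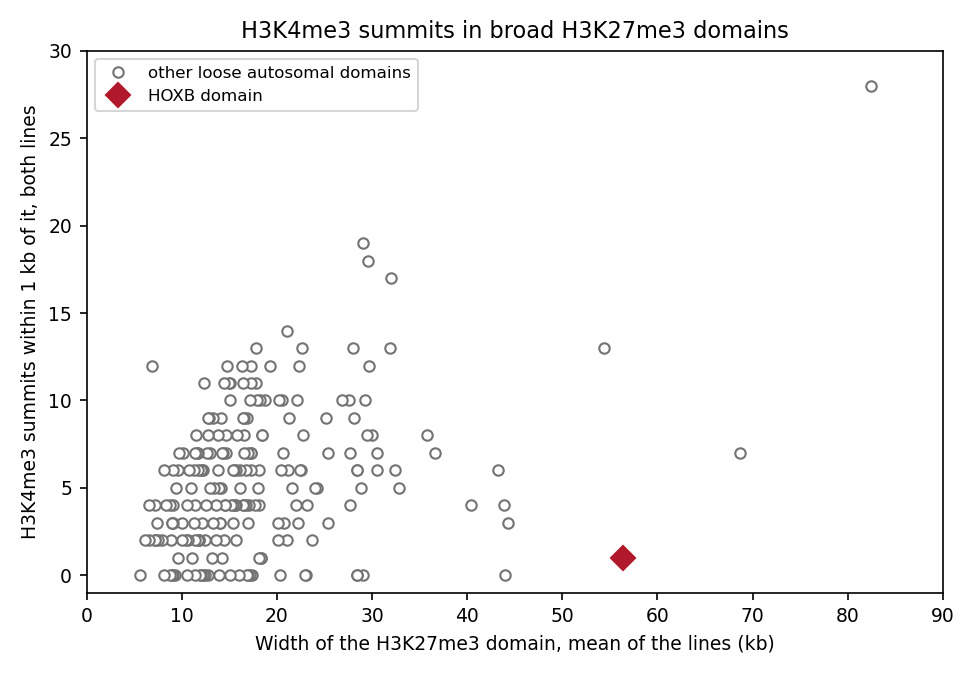
Number of H3K4me3 summits of both lines within 1 kb of a domain (y axis) against the width of the H3K27me3 domain, as the mean of the lines (x axis, kb), for 215 loose autosomal domains, 1 point each. The HOXB domain (diamond) lies at 56.3 kb with 1 summit, and the 2 wider domains hold 7 and 28.

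For the whole interval the place of HOXB depended on which windows it was set beside. Autosomes were tiled in windows of 400 kb, of which the interval is 1, and 12 windows had at least 30 H3K27me3 summits in each line and no position-locked domain. The HOXB window, with 97 H3K27me3 summits over both lines, had 12 of H3K4me3, against a median of 30.5 and a range of 1 to 73 over the 12 windows. Fewer H3K4me3 summits were found in 3 of them. The window of chromosome 25 that starts at base 32400001 held 114 H3K27me3 summits, more than HOXB, and 1 of H3K4me3. The other two were the window of chromosome 7 from base 48400001, with 80 and 10, and that of chromosome 23 from base 22800001, with 61 and 11. In the other direction, the window of chromosome 4 that starts at base 69200001 held 99 H3K27me3 and 28 H3K4me3 summits, and that of chromosome 3 that starts at base 21200001 held 114 and 65. With windows that hold a position-locked domain included, 60 windows had at least 30 H3K27me3 summits in each line. Their median was 11 H3K4me3 summits, and 33 of the 60 had fewer than the HOXB window. Over all 4810 windows with a summit in any list the median was 6, and 3711 had fewer. The HOXB count was thus below the median of the 12 windows and above that of either larger set. With gaps of 25 kb allowed in all chains, the HOXB stretch, 233 kb as the mean of the lines, ranked 2 by width among 295 loose ones, and its 3 and 7 H3K4me3 summits compared with medians of 4.5 and 7 over the 20 widest. At this scale the number of H3K4me3 summits was close to that of the other wide stretches.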

How the data were processed

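The 4 ChIP-seq libraries, 1 for each mark and line, gave 1 deposited list of peak summits each. The submitters' processing notes name BWA, MACS2 and the build UMD3.1, per the labels. The versions, any filters, the use of the inputs and a mode for broad peaks are not given in the sources used here. As no list holds a score under 2, the deposited score was taken for the −log10 of a p-value or q-value, with no source that says which. Each deposited position is a single base, so peaks have no width here, and as read counts are not part of the lists the depth is unknown, so no interval that needs it was computed.

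Positions are counted from 1. Summits on the interval of the locus were taken from all 4 lists. Summits counted as near within 1000 bases, with 500, 2000 and 5000 bases as alternatives. H3K27me3 summits of both lines were chained over gaps of up to 5000 bases (alternatives 3, 10 and 25 kb), and domains needed 5 summits in each line (alternative 10). The width of a domain is measured from first to last summit in each line and averaged. Positions were named by a rule: every H3K4me3 summit, the ends, widest gap and 5 strongest summits of H3K27me3, and the 5 widest other loose domains. Other positions, the blocks, the 25 kb gap, the 30 kb width and the window minimum were added after values were seen. The members and lists were chosen with earlier results of these data known. Genes and sequences were not analysed beyond gene order in ARS-UCD2.0. Chaining and matching were tested on simulated lists. The work used Python 3.11.15 with pandas 2.3.3, numpy 2.4.6, matplotlib 3.10.9 and scipy 1.17.1.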

Additional observations from a re-analysis of the deposited data

How the results depend on the processing

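Of 53 alternatives for 13 values, 17 stayed within 1 SD between lines or 1.5 times of a count and 36 moved further. Whether a value reversed was not scored. Of the 53, 5 were added after the data were examined. For the place among other domains, the percent that 1 domain makes up (0.467) replaced the SD where the SD was smaller. This was so by width and by distance between lines. The limits of the domain depended most on the chain. Its width was 22.7 kb with a gap of 3 kb, with 11 and 12 summits, since the left block then held the most. It was 76.5 kb with 10 kb and 233 kb with 25 kb (44 and 49 summits). With the summits at or under each list's median score left out, the left block again held the most (8 and 9), over 21.4 kb. With 1 line left out the left block also held the most, with 11 to 12 summits over 22.7 kb. Sharing of H3K27me3 between lines, 68.0% over both lines within 1 kb, was 55.7% within 500 bases, 78.4% within 2 kb, 95.9% within 5 kb and 62.5% above the median score. H3K4me3 with H3K27me3, 83.3% over both lines, was 66.7% within 500 bases. The median score of the domain, at percentile 57.8 of its list, stood at 50.6 among autosomal summits and at 66.6 outside position-locked domains. Merging summits within 1 kb gave a median gap of 2.92 kb, against 2.64 kb.

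Of the 214 other loose domains, 99.1% were narrower, 4.67% had fewer summits per 10 kb, 76.2% a lower median score and 67.8% a shorter distance between lines. Against all 397 other autosomal domains, width gave 93.5%, score 44.7% and distance 82.6%. With chain gaps of 3 kb the left block took the place of the domain (133 others) and the 4 values were 94.0%, 30.1%, 88.7% and 0%. The left block is not itself loose, since its lines lay a median of 94 bases apart, under the limit for loose domains. Its 0% for distance is therefore set by that limit and does not rank the block. With chain gaps of 10 kb (251 others) the 4 values were 97.6%, 17.5%, 81.1% and 55.4%. With at least 10 summits per line (36) width gave 94.4%, density 0% and distance 75%. No paired analysis was possible because the results come from no test. The unknown depth limits how far a missing summit can be read as missing signal.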

Other observations

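The H3K27me3 scores of the locus took repeated values in line A. Of its 46 summits, 16 carried a score that recurred within the interval, such as 16.8 at 38411780, 38553863 and 38581049, against 4 of the 51 of line B. The share of repeated scores over the whole list of line A was not computed. Repeats were not confined to the locus. The score 6.54 of 38593623 and 38613114 was also the line A median of the loose domains on chromosome 12 from base 32304441 and chromosome 18 from base 50348678.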
